A study of Mus musculus with 14 samples.

Results

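Synpr, which encodes synaptoporin, and its 5 relatives Syp, Sypl, Syngr1, Syngr2 and Syngr3 form the synaptophysin and synaptogyrin family described here. They are 6 of the 23337 genes in the count tables and were taken by gene symbol. Synpr was chosen by its measured counts in cerebellum, where they differed between the genotypes, so its values in that comparison are a description with no test. The other 5 genes entered by family name, though the list of members was set with earlier results of these data known. RNA sequencing was measured in mice of the C57Bl/6 strain at 6 months of age. The groups were striatum of Thap1 conditional knockout mice (cKO, 3 samples), striatum of wildtype littermates (WT, 3 samples), cerebellum of cKO mice (4 samples) and cerebellum of WT littermates (4 samples). Thap1 encodes a DNA-binding transcription factor whose human gene is mutated in a form of dystonia. Neither the Cre driver nor the deleted part of Thap1 is given in the sources used here, nor whether replicates were separate animals. The p-values therefore measure the spread between these samples, which may be technical.

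Synaptic vesicles store neurotransmitter in nerve endings and fuse with the presynaptic membrane to release it. Synaptophysins and synaptogyrins are proteins that cross the vesicle membrane several times and share a membrane-spanning MARVEL domain. Synaptophysin binds the vesicle SNARE protein synaptobrevin, and synaptoporin is its close relative, best known in rodents from the mossy fibre terminals of the hippocampus. Synaptogyrin 1 and synaptogyrin 3 are found mainly in neurons, while pantophysin (Sypl) and synaptogyrin 2 are found on transport vesicles of many cell types.

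The RefSeq table of promoters (GRCm38.p6) held 5 of the 6 genes, Syngr3 being the other, with 7 windows of 250 bases just before a transcription start. The windows of Synpr are shown because it is the gene chosen for its cerebellar genotype difference and because THAP1 binds DNA. Capitals mark CpG dinucleotides, the sites of DNA methylation in mammals. The first window lies at chr14:13284530-13284779 on the + strand, just before the start of the gene. The second lies at chr14:13453708-13453957 on the + strand, before a start inside the gene.
Synpr start 1: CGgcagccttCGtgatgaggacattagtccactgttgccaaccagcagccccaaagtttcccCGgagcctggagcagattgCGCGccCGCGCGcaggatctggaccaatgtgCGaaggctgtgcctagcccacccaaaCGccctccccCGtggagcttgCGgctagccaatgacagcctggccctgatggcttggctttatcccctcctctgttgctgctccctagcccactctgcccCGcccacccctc
Synpr start 2: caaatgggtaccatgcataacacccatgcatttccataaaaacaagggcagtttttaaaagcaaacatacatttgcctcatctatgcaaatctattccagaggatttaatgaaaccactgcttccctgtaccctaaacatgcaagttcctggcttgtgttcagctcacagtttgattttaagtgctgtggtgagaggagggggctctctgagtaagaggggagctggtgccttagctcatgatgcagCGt
The first window had a GC content of 64.0% and 13 CpG, and the second had 44.4% and 1 CpG. The THAP1 motif TNNGGGCA, searched on both strands, was in neither, against 11.9% of all 32851 promoter windows of the same length. The YY1 motif AANATGGC, that of a zinc finger protein known to share target genes with THAP1, was in neither, against 3.91% of all windows. Among the 5 windows of the relatives, the THAP1 motif occurred once, in the first window of Sypl, and the YY1 motif in none. The absence of a match says only that these letters are not in these windows.

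The libraries held 12595941 to 14258141 counts in striatum and 19458954 to 28099205 counts in cerebellum. Levels are given in CPM, which scales each count to the size of its library after TMM adjustment within the tissue. Thap1 had 5.25, 7.65 and 3.77 CPM in cKO striatum, against 13.2, 14.4 and 15.3 CPM in WT striatum. It had 7.34, 7.45, 7.79 and 6.84 CPM in cKO cerebellum, against 10.3, 8.15, 10.5 and 8.32 CPM in WT cerebellum. All cKO libraries were below all WT libraries of their tissue, which held for 8.2% of all genes in striatum and 7.96% in cerebellum. The mean of Thap1 in cKO was 38.8% of WT in striatum and 79.0% in cerebellum. With edgeR's quasi-likelihood test the adjusted p was 0.0562 in striatum, over the threshold of 0.05, and 0.0488 in cerebellum, just under it. The tissues carried their defining markers, since Drd2 of striatal projection neurons averaged 199 CPM in cKO striatum and 230 CPM in WT striatum but 0.370 and 0.788 CPM in cKO and WT cerebellum. Gabra6 of granule cells and Pcp2 of Purkinje cells were at 0 in every striatal library. WT striatum replicate 1 stood apart, since its counts gave a chi-square of 27.2 and 26.9 per degree of freedom against the other WT striatal libraries, which gave 6.52 against each other.

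Synpr lies on chromosome 14 from 13284780 to 13616340 on the + strand (GRCm38, GENCODE vM21 annotation, identifier ENSMUSG00000056296.17), the source of all gene positions given here. It had 45.7, 49.5, 48.0 and 52.4 CPM in cKO cerebellum, against 112, 95.8, 107 and 106 CPM in WT cerebellum. Every cKO library was below every WT library, which held for 7.96% of all genes in cerebellum. The highest cKO level was well under the lowest WT level. Synpr was chosen for its difference here, so the values in this paragraph are a description with no test. The mean was 48.9 ± 2.79 CPM in cKO and 105 ± 6.75 CPM in WT (SD, n = 4 each), which put cKO at 46.6% of WT. The log2 fold change (cKO over WT) was -1.10 with a standard error (SE) of 0.0515. The values rest on 922 to 1470 counts of Synpr per cKO library and 1869 to 2550 counts per WT library. Leaving out each cerebellar library in turn gave log2 fold changes of -1.14 to -1.07. In bulk tissue, fewer cells of a type that expresses Synpr and less Synpr RNA per cell cannot be told apart.

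In striatum, Synpr had 295.35, 249 and 306 CPM in cKO libraries, against 223, 371 and 302 CPM in WT libraries. The groups overlapped, with both the lowest and the highest level in WT. The means were 283 ± 30.0 CPM in cKO and 299 ± 74.1 CPM in WT (SD, n = 3 each). The log2 fold change was -0.08 (SE 0.170, 95% confidence interval -0.46 to 0.31), with an adjusted p of 0.910 in edgeR's quasi-likelihood test. As a fold the interval ran from 0.727 to 1.24. The estimate depended on single libraries: it was -0.24 without WT replicate 1, 0.11 without WT replicate 2 and 0.01 without cKO replicate 2, with adjusted p from 0.608 to 0.997 over the 6 libraries left out in turn. The biological coefficient of variation of Synpr was 0.154 in striatum, above that of 71.1% of genes, and 0.0524 in cerebellum, above that of 32.0% of genes.

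**Figure D1:**
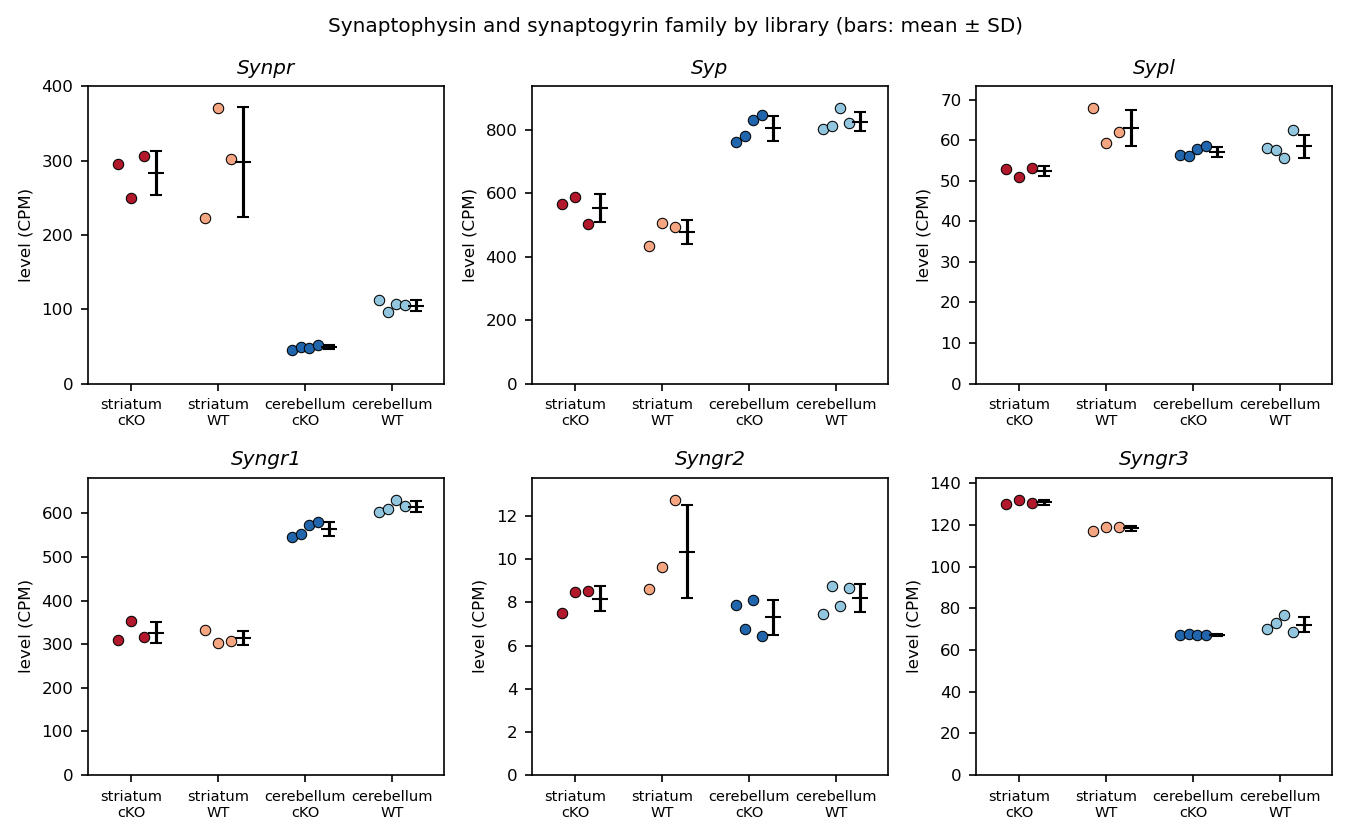
Levels in CPM (vertical axes, each from 0) of the 6 family genes in each library, by tissue and genotype, with points for single libraries and bars for the mean ± SD of 3 striatal or 4 cerebellar libraries. Synpr lies between 45.7 and 52.4 CPM in cKO cerebellum, below the 95.8 to 112 CPM of WT cerebellum, while its striatal groups overlap.

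Among the relatives, Syp encodes synaptophysin, the widely used marker protein of synaptic vesicles, and lies at chrX:7638471-7653256 on the + strand. It had 762, 779, 830 and 845 CPM in cKO cerebellum, against 801, 809.9, 868 and 822 CPM in WT cerebellum. The groups overlapped, and the log2 fold change was -0.04 (SE 0.0444, 95% interval -0.13 to 0.06, adjusted p 0.685 by edgeR). In striatum Syp had 565, 589 and 504 CPM in cKO, against 434, 507 and 492 CPM in WT. The lowest cKO library was below the highest WT library. In edgeR the striatal log2 fold change was 0.21 (SE 0.101, 95% interval -0.02 to 0.44, adjusted p 0.725).

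Syngr1, at chr15:80091334-80119501 on the + strand, encodes synaptogyrin 1. It had 547, 553, 575 and 580.4 CPM in cKO cerebellum, against 603, 611, 632 and 617 CPM in WT cerebellum. Every cKO library was below every WT library. The mean was 564 ± 16.3 CPM in cKO and 616 ± 12.2 CPM in WT (SD, n = 4 each), so that cKO was at 91.5% of WT. The log2 fold change was -0.13 (SE 0.0387, 95% interval -0.21 to -0.05) with an edgeR adjusted p of 0.0570, which missed the threshold of 0.05. It passed with DESeq2 (adjusted p 0.00103) and with sex as a covariate in edgeR (0.0208), and missed it with all 14 samples in 1 model (0.286). In striatum Syngr1 had 310.0, 354 and 316 CPM in cKO, against 332, 304 and 306 CPM in WT, and the groups overlapped. The striatal log2 fold change was 0.06 (SE 0.0893, adjusted p 0.875 by edgeR).

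Syngr3, at chr17:24685092-24689955 on the - strand, encodes synaptogyrin 3, which binds the dopamine transporter. It had 67.1, 67.9, 67.2 and 67.0 CPM in cKO cerebellum, against 70.3, 73.1, 77.1 and 68.5 CPM in WT cerebellum. It had 130.1, 132 and 130.4 CPM in cKO striatum, against 117, 119 and 119 CPM in WT striatum. The groups did not overlap in either tissue, and cKO was the lower genotype in cerebellum and the higher in striatum. Its log2 fold change was -0.10 in cerebellum (SE 0.0417, adjusted p 0.158) and 0.14 in striatum (SE 0.0755, adjusted p 0.740), and neither was called by edgeR.

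Sypl, at chr12:32953891-32979860 on the + strand, encodes pantophysin. It had 53.0, 51.0 and 53.0 CPM in cKO striatum, against 67.9, 59.3 and 62.0 CPM in WT striatum, and the groups did not overlap. The log2 fold change was -0.27 (SE 0.0911, 95% interval -0.47 to -0.06, adjusted p 0.514 by edgeR) and was -0.21 without WT replicate 1. It passed the threshold in 1 model of all 14 samples, with an edgeR adjusted p of 0.0403. In cerebellum Sypl had 56.3, 56.0, 57.7 and 58.5 CPM in cKO, against 58.2, 57.5, 55.6 and 62.5 CPM in WT. These groups overlapped, and edgeR gave a cerebellar log2 fold change of -0.03 (SE 0.0437) at an adjusted p of 0.711.

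Syngr2, at chr11:117809668-117814283 on the + strand, encodes synaptogyrin 2, also called cellugyrin, and was the rarest of the family, with 106 to 210 counts per library. It had 7.49, 8.49 and 8.55 CPM in cKO striatum, against 8.63, 9.63 and 12.8 CPM in WT striatum. It had 7.89, 6.76, 8.11 and 6.45 CPM in cKO cerebellum, against 7.45, 8.77, 7.84 and 8.69 CPM in WT cerebellum. The striatal groups only just did not overlap, and the cerebellar groups did. Its log2 fold change was -0.34 in striatum (SE 0.178, adjusted p 0.740) and -0.17 in cerebellum (SE 0.0998, adjusted p 0.344), neither called by edgeR. The counts of Syngr2 are uncertain because its exons overlap those of Gm20708, a longer gene on the same strand. Those of Syp are uncertain because its exons overlap those of the antisense gene Gm14703 and the strand setting of the counting is not given in the sources used here. Syngr1 overlaps Rpl3 on the other strand but shares no exon with it.

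Counted over the family in striatum, edgeR called 0 of 6 genes at an adjusted p under 0.05, against 0.384% of the 14080 genes tested there (0.0639% higher and 0.32% lower in cKO). DESeq2 also called 0, and 1 gene, Sypl, had an unadjusted p under 0.05, against 7.24% of all genes. The groups did not overlap for 3 of 6 genes in striatum, against 15.1% of genes. Of these, Syngr3 was higher in cKO and Sypl and Syngr2 were lower, where 6.85% of all genes tested did not overlap and were higher, and 8.2% did not overlap and were lower. In cerebellum edgeR called 0 of the 5 relatives, against 7.59% of the 14775 genes tested, while DESeq2 called Syngr1. Syngr1 and Syngr3 had an unadjusted p under 0.05, against 22.5% of all genes. The same pair were the relatives whose cerebellar groups did not overlap, against 14.3% of genes (6.38% of all tested higher and 7.96% lower in cKO). All 5 relatives had negative cerebellar log2 fold changes, between -0.17 and -0.03 with a median of -0.10, where 48.4% of all genes were negative and the median of all genes was 0.0044. Synpr itself was at -1.10, but it was chosen for its difference in this comparison, so its gap to the relatives is no test.

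**Figure D2:**
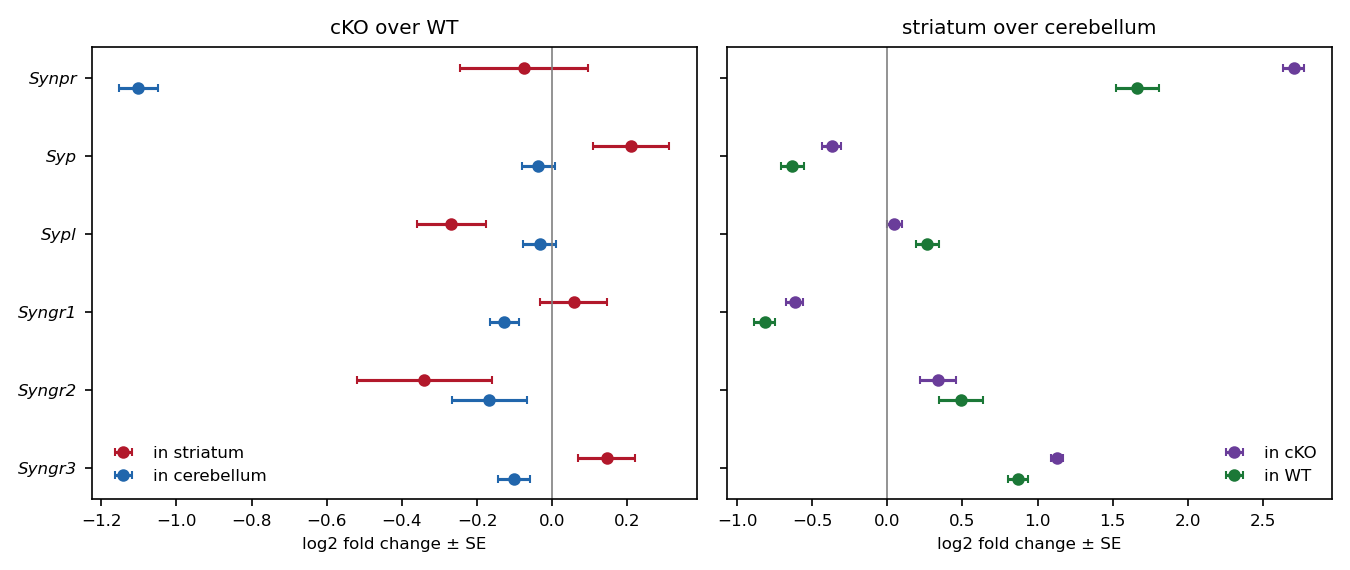
Log2 fold changes ± SE (horizontal axes) of the 6 family genes, for cKO over WT in striatum and cerebellum on the left, and for striatum over cerebellum in cKO and WT on the right. Synpr, chosen for its cerebellar difference, stands at -1.10 in cerebellum, and the relatives lie between -0.17 and -0.03 there. The regional difference of Synpr is 2.70 in cKO and 1.66 in WT.

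The genotype by tissue comparison took the striatal minus the cerebellar log2 fold change over all 14 samples and shares every library with the comparisons above. For Synpr it was 1.04 (SE 0.183), given without a test. It was 0.86 without striatal WT replicate 1 and 1.23 without striatal WT replicate 2. For the 5 relatives edgeR called 0, against 0.39% of the 15401 genes tested (0.149% higher and 0.24% lower), and 4 had an unadjusted p under 0.05, against 11.6% of genes. Syngr3 had the smallest p of the 5, with a difference of 0.26 (SE 0.0690, edgeR adjusted p 0.130), and DESeq2 called it (adjusted p 0.0251). The differences of Syp (0.26), Syngr1 (0.20), Sypl (-0.22) and Syngr2 (-0.16) had edgeR adjusted p between 0.324 and 0.784.

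For Synpr, Syp, Syngr1 and Syngr3, the regional differences were larger than the genotype differences of the same gene. Striatum over cerebellum, the log2 fold change of Synpr was 2.70 in cKO (SE 0.0716), a 6.52-fold difference, and 1.66 in WT (SE 0.144), a 3.17-fold difference. These are given without a test, since they use the cerebellar libraries that Synpr was chosen on. Syngr3 was also higher in striatum, by 1.13 in cKO (SE 0.0394) and 0.87 in WT (SE 0.0639) on the log2 scale. Syp and Syngr1 were lower in striatum: Syp had log2 fold changes of -0.37 in cKO and -0.63 in WT, and Syngr1 had -0.62 in cKO and -0.82 in WT. Syp, Syngr1 and Syngr3 passed the edgeR threshold in both genotypes, with adjusted p from 5.11e-12 to 0.000115 in cKO and from 1.56e-06 to 5.55e-05 in WT.

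The regional differences of the less neuronal members were smaller, and those of Syngr2 rested on single libraries. Sypl was higher in striatum in WT (log2 fold change 0.27, SE 0.0773, edgeR adjusted p 0.0128), and its cKO value was 0.05 (edgeR adjusted p 0.416). Syngr2 was higher in striatum by 0.33 in cKO (SE 0.121, edgeR adjusted p 0.0221) and 0.49 in WT (SE 0.147, edgeR adjusted p 0.0146). The cKO call of Syngr2 was lost without striatal cKO replicate 2 or 3 or cerebellar cKO replicate 2 or 4 (adjusted p 0.0601 to 0.0803). Its WT call was lost without striatal WT replicate 3 (adjusted p 0.0661) or cerebellar WT replicate 1 (adjusted p 0.0518). In cKO, 4 of the 5 relatives were called, 2 higher and 2 lower in striatum, where 74.4% of genes were called, 36.7% higher and 37.7% lower. In WT, 5 of 5 were called, 3 higher and 2 lower, where 64.2% of genes were called, 31.5% higher and 32.7% lower.

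Levels of different genes were compared as RPKM, the count per kilobase of exon scaled to library size with TMM factors over all 14 libraries, so it is not the within-tissue CPM divided by length. In cKO striatum the order was Syp (113 ± 8.81 RPKM), Syngr1 (72.4 ± 5.18), Syngr3 (67.4 ± 0.516), Synpr (32.0 ± 3.44), Sypl (6.69 ± 0.161) and Syngr2 (4.91 ± 0.355), as mean ± SD of 3 samples. In WT striatum the order was the same, with Synpr at 33.7 ± 8.39 RPKM, and only Sypl (8.04 ± 0.547) and Syngr2 (6.20 ± 1.31) overlapped as neighbours. In cKO cerebellum the order was Syp (146 ± 7.58 RPKM), Syngr1 (111 ± 3.44), Syngr3 (30.8 ± 0.178), Sypl (6.50 ± 0.146), Synpr (4.92 ± 0.291) and Syngr2 (3.90 ± 0.433), as mean ± SD of 4 samples, with no overlap between neighbours. In WT cerebellum Synpr (10.7 ± 0.682 RPKM) stood above Sypl (6.71 ± 0.324), with no overlap. These 2 genes therefore stood in the opposite order in the genotypes, which restates the difference that Synpr was chosen for and is no test. The order of Synpr and Sypl depends on the length used, which was 9439 bases of exon for Synpr and 4289 bases for its longest transcript. With the longest transcript, Synpr and Sypl were both at 10.8 RPKM in cKO cerebellum, and Synpr took the third place in WT striatum.

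**Figure D3:**
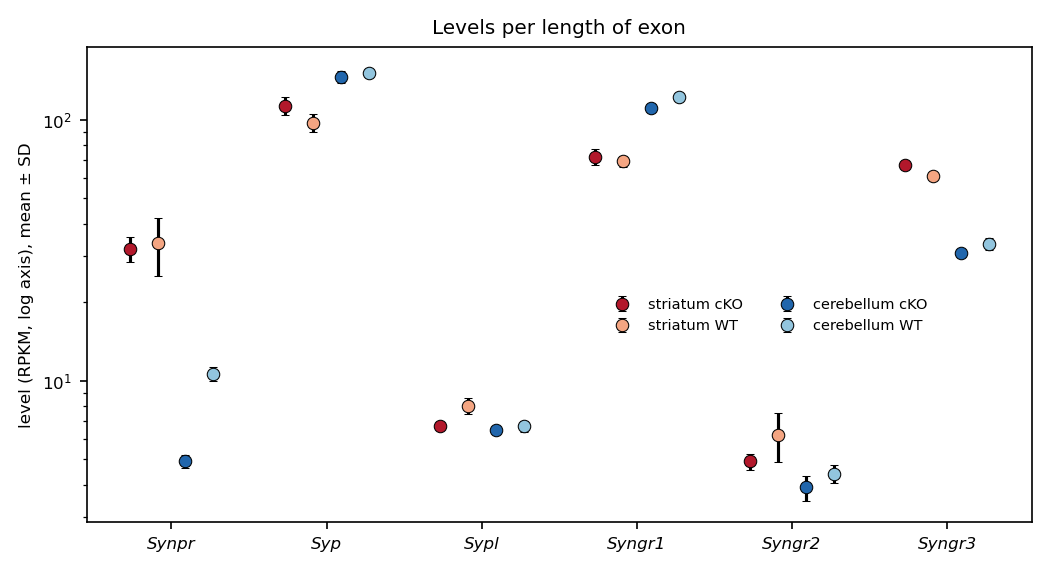
Level per length of exon in RPKM (vertical axis, log scale) of the 6 family genes in the 4 groups, as mean ± SD of 3 striatal or 4 cerebellar libraries. Synpr is at 4.92 RPKM in cKO cerebellum and 10.7 RPKM in WT cerebellum, below its 32.0 RPKM in cKO striatum and 33.7 RPKM in WT striatum.

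Beyond the family, 99 genes of the synaptic vesicle cycle were listed in 6 groups, and 95 were tested in each genotype comparison. In striatum edgeR called 0 of them, with a median log2 fold change of -0.02, against 0.0024 over all genes, and without WT replicate 1 it called 1, Bin1, lower in cKO. In cerebellum 3 were higher and 11 lower in cKO, where 2.63% of all genes were higher and 4.96% lower, with a median of -0.02 against 0.0044 over all genes. The lower count was 7 without cerebellar WT replicate 3 or cKO replicate 2, and the higher count was 1 without WT replicate 3 or cKO replicate 3. None of the 6 tested genes nearest to the family in kind, Sypl2 and the secretory carrier membrane proteins Scamp1 to Scamp5, was called in cerebellum, and their log2 fold changes ran from -0.13 to 0.03. None of the 6 tested vesicular transmitter transporters was called there either, with a range of -0.06 to 0.11.

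The active zone scaffold, which holds vesicles at the release site, had 5 genes lower and 1 higher of 16 in cKO cerebellum, against the 4.96% of all genes lower and 2.63% higher there. Without WT replicate 3, WT replicate 4 or cKO replicate 1 the count was 3 lower and 0 higher, and without cKO replicate 3 it was 5 lower and 0 higher. Bsn, which encodes the scaffold protein bassoon, averaged 544 ± 17.8 CPM in cKO and 630 ± 29.7 CPM in WT (log2 fold change -0.21, adjusted p 0.00668 by edgeR). Erc1, of a family of active zone proteins that bind RIM, averaged 143 ± 5.46 CPM in cKO and 163 ± 6.91 CPM in WT (log2 fold change -0.19, adjusted p 0.00512 by edgeR). Bsn and Erc1 stayed called with each of the 8 cerebellar libraries left out. The liprins Ppfia4 and Ppfia1 were each lower by 0.17 on the log2 scale, and their calls were lost in 1 and 3 of those 8 fits.

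Vesicle recycling had 4 genes lower of 25, against the same 4.96% of all genes, namely the endophilins Sh3gl3 (log2 fold change -0.54) and Sh3gl1 (-0.23), the membrane-bending protein gene Bin1 (-0.13) and the dynamin gene Dnm3 (-0.15). Without WT replicate 3 or cKO replicate 2 the count was 2, Sh3gl3 and Sh3gl1, and Dnm3 was also lost without WT replicate 4 or cKO replicate 1. Among 17 genes of SNARE proteins and fusion, the complexin gene Cplx2 fell to 1076 ± 24.7 CPM in cKO, against 1288 ± 108 CPM in WT (log2 fold change -0.26, adjusted p 0.00528 by edgeR). The tomosyn gene Stxbp5 had a log2 fold change of 0.12 (adjusted p 0.0460 by edgeR), and its call was lost in 6 of the 8 fits that left out a library. Among 25 calcium sensor, SV2, synapsin and Rab3 genes, the small GTPase genes Rab3c (0.17) and Rab3d (-0.26) were called, in opposite directions. Each of these changes was smaller in size than that of Synpr, but Synpr was chosen for its difference in this comparison, so this is no test.

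**Figure D4:**
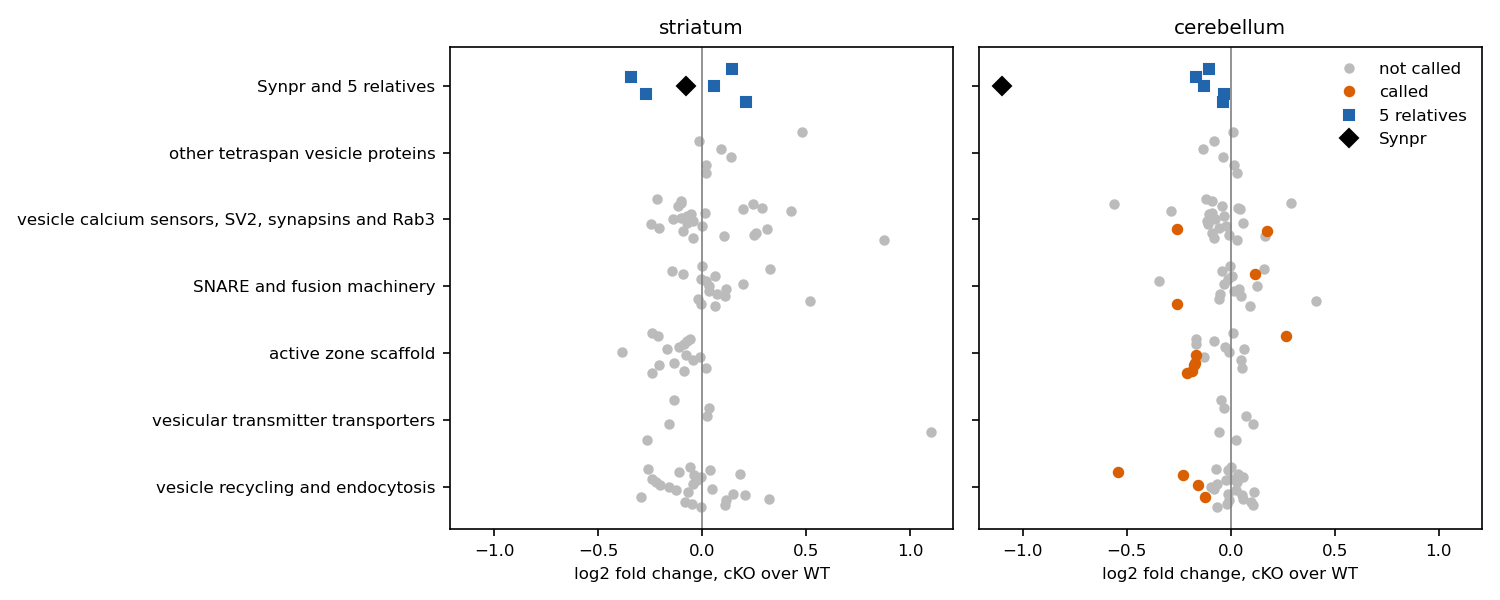
Log2 fold changes (horizontal axes, cKO over WT) in striatum and cerebellum of Synpr, its 5 relatives and 95 tested genes of 6 vesicle groups, with 1 point per gene and called list genes in orange. In cerebellum 11 list genes are called lower and 3 higher, and Synpr, chosen for its difference there, is at -1.10.

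Some cell type markers were also called between the genotypes. For comparison, edgeR called 2.63% of all genes higher and 4.96% lower in cKO cerebellum. In cKO striatum it called 0.0639% higher and 0.32% lower. In cerebellum, 6 of 9 oligodendrocyte markers were lower, with sums of 4463 to 5023 CPM in cKO and 5115 to 5646 CPM in WT. Of 10 granule cell markers 2 were lower, with sums of 6856 to 7237 CPM in cKO and 7115 to 8096 CPM in WT. Of 8 Purkinje cell markers 1 was higher, with sums of 13259 to 14398 CPM in cKO and 12447 to 13132 CPM in WT. Of 10 inhibitory interneuron markers 1 was lower, Nos1, with sums of 2035 to 2159 CPM in cKO and 2052 to 2214 CPM in WT. Of 8 markers of meninges and choroid plexus 2 were higher, Col1a2 and Igf2. The sums were 975 to 3844 CPM in cKO and 189 to 2364 CPM in WT. Most of the sum was Ttr, which averaged 1998 CPM in cKO and 1331 CPM in WT and was not called (edgeR adjusted p 0.845). Of 9 astrocyte markers 3 were higher (Gfap, Aqp4 and Gja1) and 2 lower (Slc1a3 and S100b), with sums of 6560 to 7260 CPM in cKO and 6587 to 6958 CPM in WT. Of 6 oligodendrocyte precursor markers 1 was higher in cerebellum, Pdgfra (log2 fold change 0.26, edgeR adjusted p 0.00982). The sums of that list overlapped, at 164 to 173 CPM in cKO and 159 to 182 CPM in WT. Of 5 tested striatal interneuron markers 2 were lower in cerebellum (Npy and Nos1), as was 1 of 5 cortical projection neuron markers (Neurod2). In striatum, 4 of 9 oligodendrocyte markers were lower, with sums of 4685 to 5834 CPM in cKO and 7372 to 9022 CPM in WT. No marker of the other lists was called there. Striatal sums also did not overlap for oligodendrocyte precursors (309 to 325 CPM in cKO, 340 to 394 CPM in WT). For comparison, the striatal groups did not overlap for 15.1% of single genes. The sums of the Purkinje list did not overlap either (2497 to 2722 CPM in cKO, 2850 to 3098 CPM in WT). Most of that sum was Itpr1, which averaged 1739 CPM in cKO and 2086 CPM in WT (edgeR adjusted p 0.613). Pcp2 of the same list was at 0 in striatum, so this sum is not a measure of Purkinje cells. Striatal interneuron sums were higher in cKO (431 to 459 CPM, against 361 to 418 CPM in WT). Sst of that list averaged 183 CPM in cKO and 123 CPM in WT (edgeR adjusted p 0.461). The median log2 fold change of the list was 0.02, with 3 of 8 tested genes negative. The part of these differences in the values of Synpr and its relatives was not tested.

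On chromosome 14, the 2 tested genes on either side of Synpr all had log2 fold changes above 0 in cerebellum. The nearest tested gene before it, 462 kb away, was Cadps, which encodes a protein that primes dense-core vesicles. Cadps was higher in cKO, at 274 CPM against 250 CPM in WT (log2 fold change 0.13, SE 0.0355, adjusted p 0.0333 by edgeR). Sntn, 54.5 kb after Synpr, stood under 1 CPM in both genotypes (log2 fold change 0.52, adjusted p 0.407 by edgeR). Thoc7, of the mRNA export complex THO, lay 333 kb after Synpr and had a log2 fold change of 0.08 (adjusted p 0.273 by edgeR). The next tested gene before Cadps, 3830406C13Rik, lay 982 kb from Synpr and had 0.11 (adjusted p 0.357 by edgeR).

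Genes with a profile like that of Synpr were ranked by the root mean square difference of log2 CPM, each gene centred on its mean over the 14 libraries, among 12825 genes. This measure includes the cerebellar genotype difference that Synpr was chosen for, so it is a description. The closest were Rasal1, a Ras GTPase-activating protein gene (0.286), the semaphorin receptor gene Plxnd1 (0.308), the sugar phosphate transporter gene Slc37a1 (0.333), Tmem180 (0.337), the RNA-binding protein gene Celf3 (0.345) and the selectin ligand gene Selplg (0.351). The median over all genes was 1.20, and the other family members lay between 0.713 and 1.49. All 6 were higher in striatum than in cerebellum and had negative cerebellar log2 fold changes, cKO over WT, from -1.04 for Tmem180 to -0.30 for Celf3 and Selplg. Rasal1 was at -0.74 in cerebellum and 0.01 in striatum. The striatal log2 fold changes of the 6 ran from -0.48 for Tmem180 to 0.21 for Slc37a1.

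**Figure D5:**
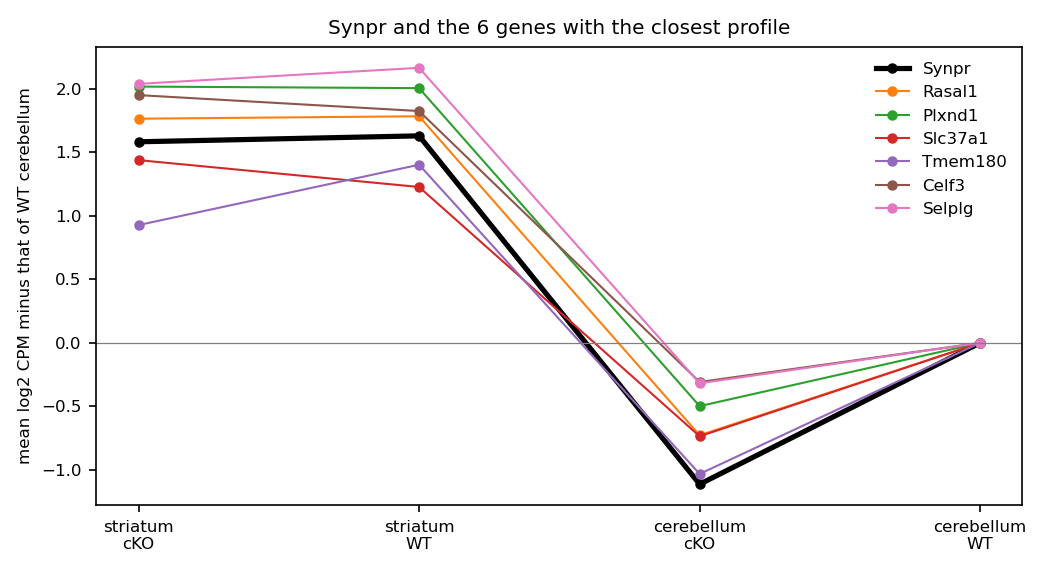
Mean log2 CPM of each group minus that of WT cerebellum (vertical axis) for Synpr, in black, and the 6 genes with the closest profile, with 1 line per gene joining its 4 group means. Synpr is at -1.11 in cKO cerebellum and at 1.58 and 1.63 in cKO and WT striatum.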

How the data were processed

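The authors deposited raw read counts per gene for each of the 14 samples. The genome build was mm10 and the tools were STAR, HTSeq 0.6.1p1, cutadapt 1.13 and DESeq2, per the submitters' processing notes. Neither the annotation nor the strand setting is given in the sources used here. Gene positions and lengths came from the GENCODE vM21 annotation of GRCm38.

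Genotypes were compared within each tissue, tissues within each genotype, and genotype by tissue over all samples, with edgeR 4.0.16 (R 4.3.3). The test was its robust quasi-likelihood F test with TMM factors, after filterByExpr (minimum count 10, minimum total 15). A call needed an adjusted p (Benjamini-Hochberg, over all genes tested) under 0.05. SE was computed as the absolute log2 fold change over the root of F. No p is given for Synpr in a comparison that uses cerebellum. The steps were tested on counts simulated from the fitted model, which cannot show whether that model holds for these data.

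The members, the vesicle and marker lists and the naming rule were chosen with earlier results of these data known. The rule named all members, up to 4 genes per vesicle list by p, the 6 closest profiles (prior count 2, mean CPM of at least 1), Thap1, the 2 tested neighbours on either side of Synpr and overlapping genes. Alternatives were DESeq2 1.42.0, other scaling and filtering, a replicate block, sex (read from Xist and Y-linked counts) as a covariate, 1 model of all samples, the longest transcript as length, and leaving out each library.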

Additional observations from a re-analysis of the deposited data

Results flagged for a closer look

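The measured genotype difference of Synpr was larger in cerebellum, the tissue it was chosen on, than in striatum. Its striatal minus cerebellar log2 fold change (cKO over WT) was 1.04 (SE 0.183, 14 samples), from -0.08 (SE 0.170) in striatum and -1.10 (SE 0.0515) in cerebellum. No p is given because Synpr was chosen for the cerebellar value that enters this difference.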

How the results depend on the processing

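Depth limits Syngr2 most, with 106 to 210 counts per library. The genes called in striatum (54) became 153 with DESeq2, 15 with the replicate block, 376 in 1 model of all samples and 3 to 122 with each library left out. The 1 model called 1 family member there, Sypl. The genes called in cerebellum (1121) became 251 in 1 model and 739 to 1165 with each library left out. DESeq2, the replicate block and sex as a covariate each called 1 member there, Syngr1. The genes called for genotype by tissue (60) became 228 with DESeq2, which called 1 member, Syngr3, 19 with the replicate block, and 17 to 193 with each library left out. With each library left out, the log2 fold change of Synpr ran from -0.24 to 0.11 in striatum, reversing without WT replicate 2 (0.11) and cKO replicate 2 (0.01), and from 0.86 to 1.23 for genotype by tissue. Vesicle list genes called ran from 0 to 1 lower in striatum, and from 7 to 13 lower and 1 to 3 higher in cerebellum. Signs also reversed for Syngr1 in striatum without cKO replicate 2 (-0.0043, in a range up to 0.10), Sypl in cerebellum without WT replicate 4 (0.0022, in a range down to -0.054) and Syngr2 for genotype by tissue without striatal WT replicate 3 (0.022, in a range down to -0.28). With the longest transcript as length, Synpr ranked 3 in WT striatum. The cause of these shifts was not tested. Same-numbered libraries correlated at 0.0574 to 0.133 in striatum, where all 6 libraries correlated best with their own number, a hint from the data and not the design, and at 0.0569 to 0.34 in cerebellum, where 2 of 8 did. The numbers were therefore not taken to pair the samples. With the replicate block, Syngr1 passed the threshold in cerebellum (adjusted p 0.0494) and Syngr2 did not in the regional comparison of cKO (adjusted p 0.0877).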
